A study of Mus musculus with 6 samples.

Results

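The collagen genes were compared between soft palates of wild-type mouse embryos, the controls, and embryos without Dlx5 (Dlx5-/-), a gene for a homeodomain protein that patterns the pharyngeal arches. All embryos were at stage E14.5, when the palate is being formed. The family was taken as every row of the deposited gene count table whose symbol is Col, a type number, the letter a and a chain number. This gave 44 rows of 49492, sorted by role into 7 fibrillar, 8 cartilage, 10 basement membrane and 19 other collagens. There were 3 libraries in each group, made from RNA of the posterior palate. By its title the series addresses exchanges between neural crest and myoblasts in the oropharynx. The labels name no mouse strain and no treatment, and do not say whether a library came from 1 embryo or from several. The p-values therefore measure the spread between these libraries, which may in part be technical. Since RNA came from whole tissue, fewer cells of a type and less RNA per cell cannot be told apart.

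Collagens are the main structural proteins of connective tissue. Each molecule is a triple helix of chains, either copies of the same chain or products of different genes, and the chains are modified in the endoplasmic reticulum before they are secreted. Fibrillar collagens assemble into the banded fibrils of mesenchyme, bone and tendon. Cartilage has fibrils of its own, built on type II collagen with types IX and XI. Type IV collagen forms the sheet that underlies epithelia and vessels, and most other collagens decorate fibrils, form beaded filaments or span the cell membrane.

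Libraries held 6891798 to 11922442 estimated counts, and collagens took 1.04% to 1.64% of them. Dlx5 measured 26.1, 15.7 and 16.2 CPM (counts scaled to a common library size, with TMM, the trimmed mean of M values) in control replicates 1, 2 and 3. In knockout replicates 1, 2 and 3 it measured 0.829, 1.63 and 1.28 CPM, so the targeted gene went with the label of each of the 6 libraries. Dlx5 was the only gene of 16218 tested with an adjusted p under 0.05 (log2 fold change -3.93, SE 0.32, adjusted p = 0.0205, edgeR quasi-likelihood test). All 10 genes written as markers of palatal mesenchyme were detected, with a summed level of 440.2 to 542 CPM in controls and 484 to 565 CPM in knockouts. Of these, 3 had estimates above 0 and 7 below (median -0.27). Every knockout lay above every control for 1 (Prrx1) and below for 2 (Pax9 and Lhx8), against 9.48% and 9.71% of all genes. Prrx1 alone measured 168 to 214 CPM in controls and 230 to 284 CPM in knockouts. Knockout replicate 3 stood apart: its mean correlation with the other libraries was 0.959, against 0.970 to 0.976, and 8 markers of mature brain summed to 380 CPM in it, against 32.1 to 56.5 CPM elsewhere. Several results are therefore also given without it. The TMM factor was lowest in knockout replicate 2 (0.875) and highest in knockout replicate 3 (1.157). In these libraries ribosomal RNA rows took 25.9% and 11.2% of counts.

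No collagen gene passed the test. Of the 44, 40 reached the mean of 1 CPM needed for testing, and 0 of these were called in either direction, against 0.00617% of all genes tested. The smallest adjusted p was 0.0880, for Col18a1 (edgeR), where 1.84% of all genes had an adjusted p under 0.1, and 1.58% had one with a lower estimate. At an unadjusted p under 0.05 there were 4 collagens (10%), all with lower estimates in the knockout, namely Col18a1, Col4a1, Col4a2 and Col8a1. Among all genes 12.8% reached that level, 7.23% with lower and 5.6% with higher estimates, so the share in the family lay near the background. Every knockout library lay below every control library for 3 collagens (7.5%), against 9.71% of all genes, and above for 0, against 9.48%. Estimates were below 0 for 24 of the 40 (60%), against 47.5% of all genes. The median log2 fold change of the family was -0.10, beside 0.01 for all genes.

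Other settings called more or fewer genes of the whole table. DESeq2 called 3.12% of all genes and 2 collagens, and edgeR without a filter called 2.27% and 1 collagen; both are given with those genes. No collagen was called with library totals (0.253% of all genes), limma at pseudocounts of 0.5, 1 or 5 (0.592%, 0.598% and 0.469%), quantile normalization (0.543%) or a filter of 5 CPM (0.591%). The same held with median-of-ratios scaling (0.00617%), without ribosomal RNA rows (0.00598%) and with a replicate block (0%). With 1 library left out, 0 collagens were called, against 1.01% of all genes without knockout replicate 3, 0.037% without control replicate 1, 0.0247% without control replicate 2 and 0% without each of the other 3 in turn.

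**Figure D1:**
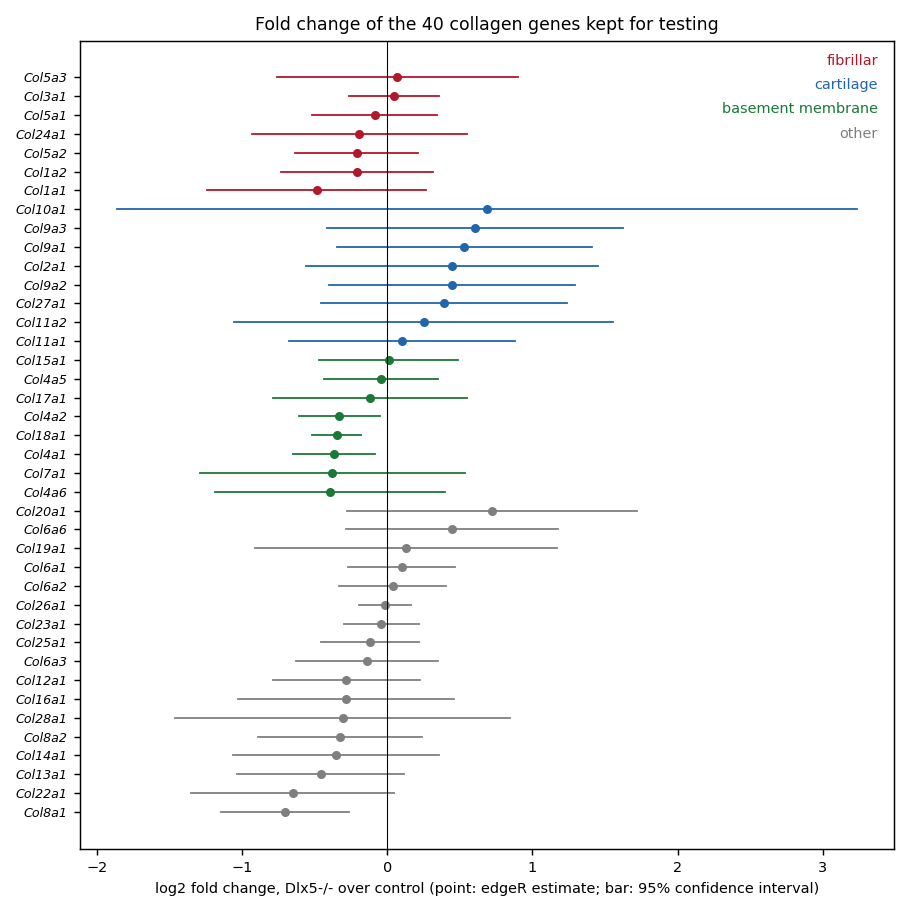
Log2 fold change of the 40 tested collagen genes (x axis, Dlx5-/- over control), grouped by role. Points are edgeR estimates and bars are 95% confidence intervals, which are widest for Col10a1 and lie below 0 for Col18a1, Col4a1, Col4a2 and Col8a1.

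Sequences at the starts of a few collagens are shown as deposited in RefSeq for build GRCm38.p6, to which mm10, the build in the submitters' processing notes, corresponds. Col4a1 and Col4a2, whose chains join in the most abundant type IV molecule, lie head to head on chromosome 8 and are read outwards from a common start region. The annotated start of Col4a2 (plus strand) is at 11312805 and that of Col4a1 (minus strand) at 11312826, so the first exons share 22 bases. The shared bases on the plus strand are the following.
Col4a1 and Col4a2 start, chr8:11312805-11312826: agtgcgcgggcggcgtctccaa

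The windows below hold the 250 bases before the start, 5′ to 3′ on the gene's strand. Col8a1, with the largest decrease in estimate of the family, is shown with the GC box GGGCGG in capitals, on either strand. Col11a2 and Col10a1, chosen for the motif and not for a difference between groups, are shown as cartilage collagens whose windows hold the homeodomain core TAATTA or TAATTG, the kind of sequence that Dlx proteins are known to bind, in capitals on either strand.
Col8a1, minus strand, chr16:57754738-57754987: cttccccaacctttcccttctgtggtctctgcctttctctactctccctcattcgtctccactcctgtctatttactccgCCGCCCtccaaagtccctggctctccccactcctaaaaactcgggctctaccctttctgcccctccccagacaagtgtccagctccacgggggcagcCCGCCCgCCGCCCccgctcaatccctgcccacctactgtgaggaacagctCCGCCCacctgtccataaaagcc
Col11a2, plus strand, chr17:34038888-34039137: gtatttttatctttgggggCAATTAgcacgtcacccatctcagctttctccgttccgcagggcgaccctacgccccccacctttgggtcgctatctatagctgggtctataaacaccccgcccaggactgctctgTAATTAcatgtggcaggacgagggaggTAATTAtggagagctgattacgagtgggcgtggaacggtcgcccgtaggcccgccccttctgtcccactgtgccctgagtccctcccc
Col10a1, plus strand, chr10:34389731-34389980: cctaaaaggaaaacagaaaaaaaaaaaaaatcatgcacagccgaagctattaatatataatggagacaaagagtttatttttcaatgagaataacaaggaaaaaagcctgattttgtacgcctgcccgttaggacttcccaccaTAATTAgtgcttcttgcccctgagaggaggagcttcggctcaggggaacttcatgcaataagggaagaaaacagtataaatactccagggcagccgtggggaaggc

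RefSeq windows were matched by symbol for 35 of the 44 collagens, with 38 windows in all, but not for Col1a1, Col2a1 or Col9a3. The homeodomain core occurred in 4 of the 38 (10.5%), namely those of Col11a2 with 3 matches and of Col10a1, Col17a1 and Col28a1 with 1 each, against 11.3% of 32851 windows of all genes. The HMG-box core AACAAT or ACAAAG, bound by the SOX class, occurred in 4 collagen windows (10.5%), against 24.0% of all windows. The GC box occurred in 22 (57.9%), against 32.7%. GC content ran from 35.2% (Col3a1) to 76.4% (Col5a1) in collagen windows, beside a median of 52.4% over all windows. Its part in these shares was not tested. Matches were counted on both strands. They describe these letters only, and none of the files measures binding.

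Levels between genes were compared per kilobase of exonic sequence (CPM per kb), taken as the union of all annotated exons of a gene, and ranked by the mean over libraries. Col1a1, a chain of the type I collagen of bone and mesenchyme, had the highest level, at 432 ± 32.9 CPM per kb in controls and 308 ± 167 in knockouts (SD, n = 3 each). Next came Col2a1 of cartilage, with 186 ± 95.7 and 253 ± 125 CPM per kb, and then Col3a1, a chain of soft connective tissue, with 169 ± 5.98 and 174 ± 34.3. In control replicates 2 and 3 and in knockout replicate 3, Col2a1 lay below Col3a1. Col1a1, Col2a1 and Col3a1 with Col1a2, the partner chain of type I, made up 45.9% to 52.1% of the summed collagen level in each library. At the other end were Col4a3, Col4a4, Col6a4 and Col6a5, with 13, 33, 16 and 17 counts in all controls together and 1, 21, 4 and 12 counts in all knockouts. These 4 genes did not reach the filter and were not tested.

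**Figure D2:**
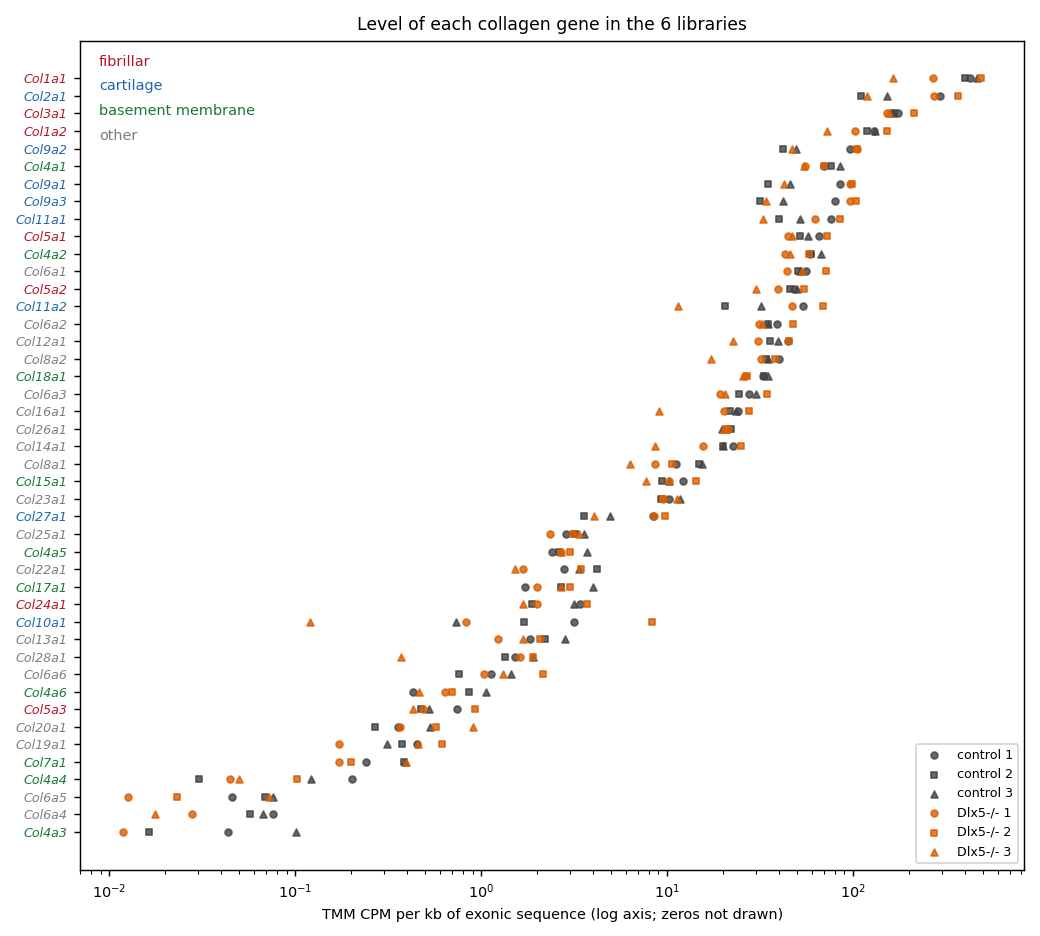
Level of each of the 44 collagen genes in CPM per kb of exonic sequence (log axis), with 1 point per library and gene names coloured by role. Cartilage collagens are spread widely within each genotype, while Col26a1 and Col23a1 are tight.

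Estimates for the basement membrane collagens lay mostly below 0. Of the 8 tested, 7 had estimates below 0 and 1 above, and 0 passed. Their median log2 fold change was -0.34, and -0.26 without knockout replicate 3. It was -0.20 without control replicate 3 and -0.21 without knockout replicate 1, each with 2 above 0 and 6 below. Of the 8 genes, 6 were highest in control replicate 3. The gene above 0 in the main fit was Col15a1, whose estimate was below 0 as well with library totals, limma and quantile normalization. The gene with the smallest p in the family was Col18a1 (chromosome 10, 77052178 to 77166548, minus strand), which encodes the core protein of a heparan sulfate proteoglycan and the source of endostatin. It measured 229, 233 and 246 CPM in control replicates 1, 2 and 3, and 185, 190.2 and 180.2 CPM in knockout replicates 1, 2 and 3. All knockouts lay below all controls, and the spread within each group was small. For Col18a1 edgeR gave -0.35 on the log2 scale (SE 0.07, 95% confidence interval -0.52 to -0.18, adjusted p = 0.0880). With each library left out in turn it ran from -0.38 to -0.32, with an adjusted p of 0.111 to 0.323. DESeq2, run as an alternative, called it lower (adjusted p = 0.00274).

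The type IV chains Col4a1 and Col4a2 form the sheet of nearly all basement membranes. Col4a1 measured 521, 571 and 638 CPM in the controls and 410.5, 524 and 407.5 CPM in the knockouts, where knockout replicate 2 exceeded control replicate 1. The estimate in edgeR was -0.37 on the log2 scale (SE 0.12, adjusted p = 0.260). Col4a2 measured 388, 393 and 444 CPM in the controls and 285, 385 and 304 CPM in the knockouts, with knockout replicate 2 just below the lowest control. For Col4a2 it was -0.33 (SE 0.12, adjusted p = 0.308, edgeR). These genes share their start region, shown above, and their ratio did not separate the groups (exact permutation p = 0.6, adjusted 0.733 over 11 ratios): Col4a1 per kb was 1.25 ± 0.0532 times Col4a2 in controls and 1.22 ± 0.0467 times in knockouts (SD, n = 3 each). Reads from the shared first bases cannot be assigned to either gene without strand, and the use of strand is not given in the sources used here.

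The remaining basement membrane genes showed differences within the spread of their libraries. Col4a5 and Col4a6, which form the type IV network of epithelia and smooth muscle, measured 19.6 ± 4.65 and 6.28 ± 2.57 CPM in controls against 18.9 ± 1.25 and 4.78 ± 0.962 CPM in knockouts. Col15a1, a relative of Col18a1 around muscle and vessels, had a log2 fold change of 0.01 (95% confidence interval -0.47 to 0.49). Col17a1, a hemidesmosome protein of epithelia, had -0.12 (-0.79 to 0.55). Col7a1, which forms anchoring fibrils under epithelia, had -0.38 (-1.29 to 0.54).

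Other basement membrane genes were read from a written list of laminins, nidogens, perlecan and agrin. All 15 were tested, 15 had estimates below 0 and 0 passed (median -0.23, from -1.37 to -0.04). All estimates stayed below 0 under each scaling tried, while 4 were above 0 without control replicate 3 and 3 without knockout replicate 3. Nid1, a linker of laminin to type IV collagen, measured 301, 293 and 312 CPM in controls and 210.0, 275 and 179 CPM in knockouts. The estimate for Nid1 was -0.45 (SE 0.15, adjusted p = 0.236, edgeR). Lamb3, a laminin chain of epithelia, had -1.37 (SE 0.46, adjusted p = 0.255, edgeR). Its level was low, at 3.56, 5.36 and 6.18 CPM in controls and 0.711, 2.17 and 2.79 CPM in knockouts.

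Markers of vessels and epithelium, the tissues that rest on basement membranes, were measured in the same libraries. Of 8 endothelial markers 7 had estimates below 0 and 3 did not overlap between groups, all lower in the knockout, against 9.71% of all genes. Their summed level was 364 to 425 CPM in controls and 298 to 349 CPM in knockouts, and these ranges did not overlap. The endothelial cadherin Cdh5, the highest of the 8 and among the 3 without overlap, weighs most in this sum. The sum is therefore not a result separate from Cdh5, which measured 163, 167 and 201 CPM in controls and 128, 148 and 120.2 CPM in knockouts. Of 8 oral epithelial markers 6 had estimates below 0, 2 did not overlap and were lower in the knockout, and the summed level was 229 to 356 CPM in controls and 211 to 270.3 CPM in knockouts. No marker of either list was at 0 or passed the test. Skeletal muscle, whose fibres also carry a basement membrane, had 10 of 10 markers with estimates above 0 (median 1.01), at a summed 733 to 1211 CPM in controls and 929 to 2537 CPM in knockouts. Of 8 neuron markers 7 had estimates below 0 and did not overlap (median -0.80), with sums of 2937 to 3758 CPM in controls and 1483 to 2023 CPM in knockouts. No muscle or neuron marker passed. The part of any of these tissues in the collagen levels was not tested.

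**Figure D3:**
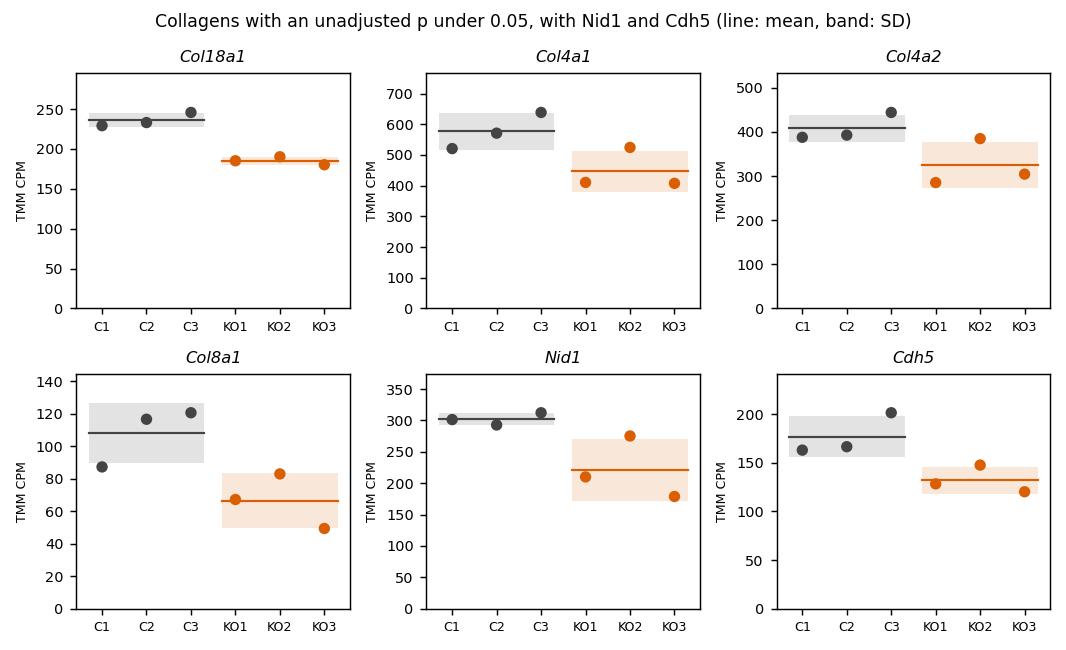
TMM CPM in each library (C1 to C3, control; KO1 to KO3, Dlx5-/-) for the 4 collagens with an unadjusted p under 0.05, the basement membrane linker Nid1 and the endothelial gene Cdh5. Lines are means and bands are SD of 3 libraries; Col18a1 separates the groups most cleanly, from 180.2 to 190.2 CPM in knockouts and from 229 to 246 CPM in controls.

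Cartilage collagens varied widely between libraries of the same genotype. All 8 were tested and 0 passed, and their median log2 fold change was 0.45. All 8 estimates were above 0 in edgeR, but Col10a1 was below 0 with limma at pseudocounts of 0.5 and 1 and with quantile normalization, the last also giving Col11a2 below 0. With a replicate block Col10a1 was below 0, and without control replicate 2 Col11a1 and Col11a2 were (-0.09 and -0.02). Col2a1, the main fibril collagen of cartilage, measured 2712, 1022 and 1414 CPM in control replicates 1, 2 and 3. In knockout replicates 1, 2 and 3 it measured 2518, 3398 and 1104 CPM. Control replicate 1 and knockout replicates 1 and 2 were thus high, and control replicates 2 and 3 and knockout replicate 3 were low. For Col2a1 edgeR gave 0.45 on the log2 scale (SE 0.44, 95% confidence interval -0.56 to 1.46, adjusted p = 0.733).

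Type IX collagen, which coats type II fibrils, is built of chains from 3 genes, and all showed the same split of libraries. Col9a1 measured 429.8, 176 and 231 CPM in controls and 490.2, 502 and 217 CPM in knockouts. Col9a2 measured 297, 131 and 154 CPM in controls and 324, 324 and 145 CPM in knockouts. Col9a3 measured 309.9, 121 and 163 CPM in controls and 374, 398 and 131 CPM in knockouts. Their log2 fold changes were 0.53, 0.44 and 0.60, with adjusted p from 0.621 to 0.673 (edgeR). Col9a1 per kb was 0.822 to 0.918 times Col9a2 in controls and 0.915 to 0.947 times in knockouts. Col9a3 per kb was 0.745 to 0.851 times Col9a2 in controls and varied more in knockouts, from 0.728 to 0.988 times.

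Col11a1 and Col11a2, chains of the type XI collagen inside cartilage fibrils, showed the smallest differences of the cartilage genes, with log2 fold changes of 0.10 and 0.25. Col11a2, whose promoter window is shown above, was lowest in knockout replicate 3, at 78.5 CPM against 322 and 472 CPM in the other knockouts and 142 to 370.2 CPM in controls. Col27a1, a fibrillar collagen of growing cartilage, measured 109.8, 46.5 and 64.4 CPM in controls and 110.7, 126 and 52.9 CPM in knockouts, again with the split of Col2a1. Col10a1, which marks hypertrophic chondrocytes, differed most between libraries, with 92, 66 and 16 counts in controls and 22, 240 and 5 counts in knockouts. Its level spanned 69.1-fold over the 6 libraries, and its log2 fold change of 0.69 had a 95% confidence interval of -1.86 to 3.24. Without knockout replicate 2 the estimate for Col10a1 was -2.10.

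The highest control exceeded the lowest by a median of 2.5-fold over the 8 cartilage collagens. The same measure was 1.13-fold for fibrillar, 1.29-fold for basement membrane and 1.24-fold for other collagens with a mean of at least 5 CPM, and 1.19-fold for all such genes. The cartilage median followed the libraries included. It was 0.76 without knockout replicate 3, 0.92 without control replicate 1, 0.20 without control replicate 2 and 0.10 without knockout replicate 2, with 5 genes above 0 and 3 below in the last.

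A written list of chondrocyte genes other than collagens showed nearly the same split. Relative to the mean of controls, the list median in control replicates 1, 2 and 3 was 0.58, -0.53 and -0.04 on the log2(CPM + 1) scale, and in knockout replicates 1, 2 and 3 it was 0.76, 0.94 and -0.82. For the cartilage collagens these values were 0.72, -0.56 and -0.16 in controls and 0.67, 1.00 and -0.50 in knockouts. The summed chondrocyte level was 683 to 1511 CPM in controls and 729 to 1839 CPM in knockouts. No gene of the list was at 0. Sox9, the master regulator of cartilage that acts upstream of Col2a1, departed from this split. It measured 265, 120.0 and 171.5 CPM in controls and 374, 299 and 286 CPM in knockouts, so that knockout replicate 3 was above every control for Sox9 while it was below 2 of the 3 controls for Col2a1. For Sox9 edgeR gave 0.79 on the log2 scale (SE 0.25, adjusted p = 0.237). Sox9 is also expressed in glia, and knockout replicate 3 held brain transcripts; their part in its Sox9 level was not tested. Whether the amount of cartilage in each dissected piece differed was not tested.

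**Figure D4:**
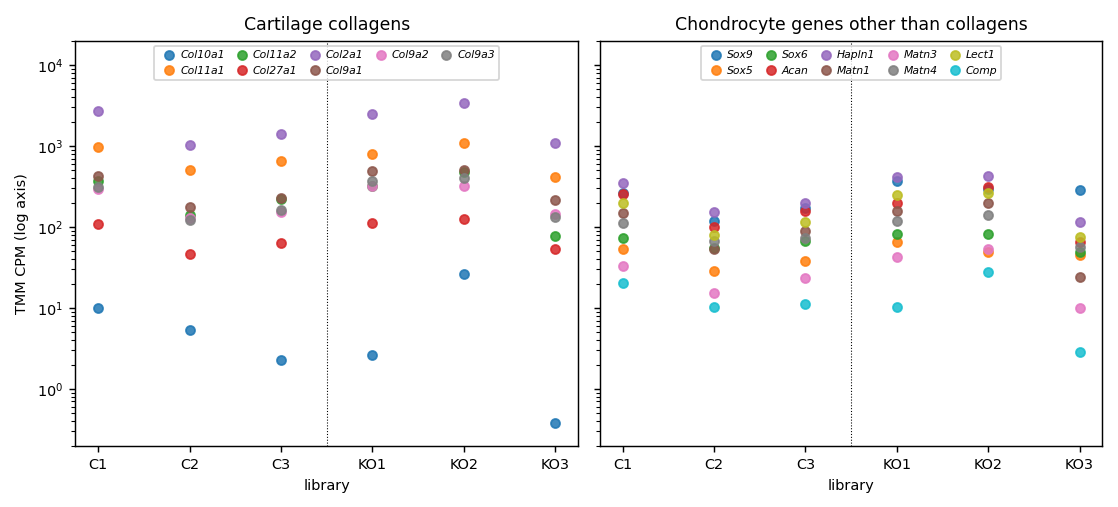
TMM CPM (log axis) of the 8 cartilage collagens (left) and of 10 chondrocyte genes other than collagens (right) in each library (C1 to C3, control; KO1 to KO3, Dlx5-/-), with 1 point per gene and library. Most genes are high in C1, KO1 and KO2 and low in C2 and KO3, whereas Sox9 stays high in KO3 at 286 CPM.

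Among the fibrillar collagens of mesenchyme and bone, 5 of 7 had estimates below 0, 2 above, and 0 passed (median -0.19). The median depended on the libraries included. Without knockout replicate 3 it was 0.01, with 5 above 0 and 2 below. It was -0.07 without knockout replicate 1 and -0.02 without control replicate 1. Without knockout replicate 2 it was -0.465, with 0 above and 7 below. Col1a1 measured 2807, 2635 and 3064 CPM in the controls and 1778, 3222 and 1072 CPM in the knockouts. Knockout replicates 1 and 3 lay below every control and knockout replicate 2 above every control. For Col1a1 edgeR gave -0.49 on the log2 scale (SE 0.33, adjusted p = 0.597), with -0.18 without knockout replicate 3 and -1.0 without knockout replicate 2. Col1a2 measured 1622, 1472 and 1625 CPM in controls and 1274, 1898 and 906 CPM in knockouts, in the same order but with a smaller range. The estimate for Col1a2 was -0.21 (SE 0.23, adjusted p = 0.761, edgeR).

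Col3a1 hardly differed, with 1723, 1636 and 1611 CPM in controls and 1504, 2099 and 1527 CPM in knockouts. The estimate was 0.05 (95% confidence interval -0.26 to 0.35). Col5a1 and Col5a2, chains of the type V collagen that starts fibrils, had log2 fold changes of -0.09 (-0.52 to 0.34) and -0.21 (-0.63 to 0.21). The minor fibrillar genes Col5a3 and Col24a1 measured 3.97 ± 0.971 and 21.5 ± 6.23 CPM in controls and 4.19 ± 1.84 and 18.7 ± 8.32 CPM in knockouts (SD, n = 3 each). All 7 fibrillar genes were highest in knockout replicate 2, and 5 were lowest in knockout replicate 3 and 2 in knockout replicate 1.

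The ratios of Col1a1 to Col1a2 and of Col3a1 to Col1a1 did not overlap between groups. Type I collagen usually holds chains of Col1a1 and Col1a2 together. Col1a1 per kb was 3.28, 3.39 and 3.57 times Col1a2 in the controls and 2.64, 3.21 and 2.24 times in the knockouts. Col3a1 per kb was 0.410, 0.415 and 0.351 times Col1a1 in controls and 0.566, 0.436 and 0.953 times in knockouts. Each gave p = 0.1 in a two-sided exact permutation test, the smallest that 3 libraries against 3 allow, and an adjusted p of 0.367 over the 11 ratios computed (exact permutation). A ratio shows unequal change of its genes and not which of them changed, and its level depends on the exonic length taken for each. Col2a1 per kb to Col1a1 also did not overlap, with 0.275 to 0.686 in controls and 0.731 to 1.01 in knockouts (exact permutation p = 0.1, adjusted 0.367). These 3 ratios all contain Col1a1, so they are not independent of each other. Of the other 8 ratios, all between chains of the same collagen type, 0 separated the groups.

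**Figure D5:**
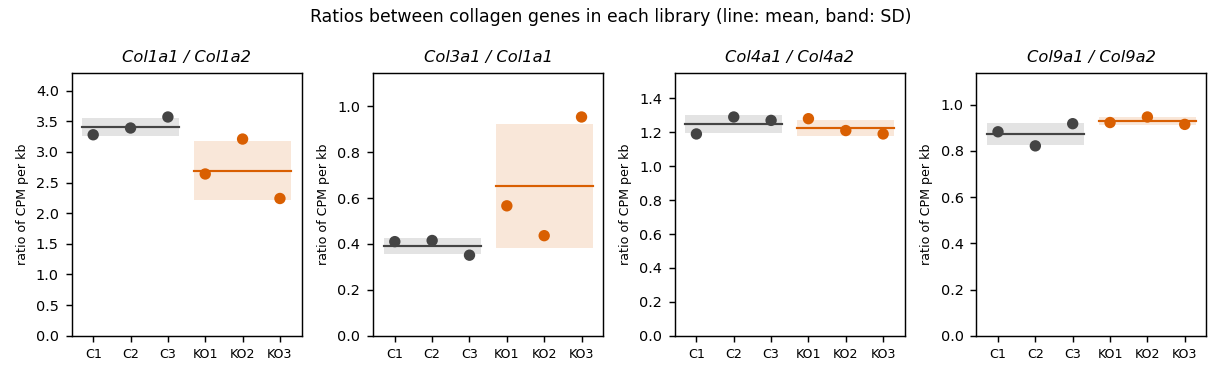
Ratio of levels per kb for 4 pairs of collagen genes in each library (C1 to C3, control; KO1 to KO3, Dlx5-/-), with the mean as a line and SD as a band. Col1a1 to Col1a2 is lower and Col3a1 to Col1a1 higher in all knockouts, while Col4a1 to Col4a2 and Col9a1 to Col9a2 overlap.

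Bone-forming cells make large amounts of type I collagen, and osteoblast markers were read beside Col1a1. The bone sialoprotein gene Ibsp measured 201, 110.2 and 542 CPM in controls and 50.1, 219 and 1.36 CPM in knockouts. Alpl, a phosphatase of mineralizing bone, measured 56.6, 52.8 and 73.9 CPM in controls and 34.6, 56.8 and 7.85 CPM in knockouts. Knockout replicates 1 and 3 were the lowest for both, as for Col1a1, but 5 of the 7 tested markers, these included, peaked in control replicate 3 while Col1a1 peaked in knockout replicate 2. Spp1, a bone matrix protein also made elsewhere, was highest in knockout replicate 1, at 22.7 CPM against 11.4 to 14.4 CPM in controls. Of 7 tested osteoblast genes 6 had estimates below 0, 1 above and 0 passed (median -0.39, and -0.07 without knockout replicate 3). They summed to 247 to 719 CPM in controls and 52.5 to 376 CPM in knockouts, lowest in knockout replicate 3. Of 10 written, Bglap and Bglap2, which mark mature osteoblasts, were listed at 0 in every library. Since the counting settings were not given, these zeros cannot be read as absence of their RNA. The part of bone-forming cells in the Col1a1 levels was not tested.

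Among the 19 other collagens, 17 were tested, with 5 estimates above 0, 12 below and 0 past the test (median -0.14). Without knockout replicate 2 the median was -0.47 and without knockout replicate 3 it was -0.02. Col8a1 (chromosome 16, 57624258 to 57754737, minus strand), a short network-forming collagen of vessel walls and mesenchyme, had the most negative estimate of the family. It measured 87.3, 117 and 121 CPM in control replicates 1, 2 and 3, and 67.3, 83.0 and 49.4 CPM in the knockouts. All knockouts lay below all controls, although knockout replicate 2 was close to control replicate 1. For Col8a1 edgeR gave -0.70 on the log2 scale (SE 0.19, 95% confidence interval -1.15 to -0.26, adjusted p = 0.165), and -0.91 to -0.53 with each library left out in turn. DESeq2 called Col8a1 lower (adjusted p = 0.00792), as did edgeR without the filter on low genes (adjusted p = 0.00337). Its partner Col8a2 measured 180.2, 154 and 157 CPM in controls and 144, 171 and 77.4 CPM in knockouts, with overlap and a log2 fold change of -0.33 (SE 0.25).

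The beaded filament collagens of type VI surround cells in mesenchyme and muscle. Col6a1, Col6a2 and Col6a3 had log2 fold changes of 0.10 (95% confidence interval -0.27 to 0.47), 0.04 (-0.33 to 0.40) and -0.14 (-0.63 to 0.35). Col6a1 measured 245, 221 and 228 CPM in controls and 193, 315 and 234 CPM in knockouts. Col6a6, a later-described chain of type VI, had 0.45 and Col28a1, a related chain of peripheral nerve, -0.31, both with wide intervals. All 5 tested genes of this kind were highest in knockout replicate 2, as were 24 of all 40 tested collagens. Skeletal muscle markers were also highest there, at a summed 2537 CPM against 733 to 1650 CPM in the other libraries. The part of muscle in these levels was not tested.

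Collagens that associate with fibrils were lowest in knockout replicate 3 for 4 of 6 genes. Col12a1, found in tendon and dense connective tissue, measured 681, 548 and 604 CPM in controls and 473, 688 and 345 CPM in knockouts, with a log2 fold change of -0.28 (SE 0.22). Col14a1 and Col16a1 measured 60.7 and 61.4 CPM in knockout replicate 3, against 109 to 174 and 136 to 187 CPM in all other libraries. Col22a1, a collagen of the junction between muscle and tendon, measured 25.6, 38.7 and 30.9 CPM in controls and 15.4, 31.7 and 13.96 CPM in knockouts. The estimate was -0.65 (SE 0.31, adjusted p = 0.424, edgeR), in contrast to the skeletal muscle markers, of which 10 of 10 had estimates above 0 and 0 passed. The tendon regulator Scx measured 18.8, 20.9 and 17.8 CPM in controls and 22.7, 25.1 and 21.7 CPM in knockouts. Col20a1 and Col19a1, at means under 4 CPM, had 0.72 (SE 0.44) and 0.13 (SE 0.45).

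The transmembrane collagens Col13a1, Col23a1 and Col25a1 had estimates below 0, and their groups overlapped. Col13a1, found at cell adhesions and the neuromuscular synapse, measured 8.42, 10.2 and 13.1 CPM in controls and 5.68, 9.56 and 7.70 CPM in knockouts (edgeR estimate -0.46 on the log2 scale, SE 0.25, adjusted p = 0.495). Col23a1 and Col25a1 had -0.04 (95% confidence interval -0.30 to 0.22) and -0.12 (-0.46 to 0.22). Col26a1, a small secreted collagen, was the steadiest of the family. It measured 174, 179.8 and 161 CPM in controls and 174, 171 and 165 CPM in knockouts, and its log2 fold change of -0.02 had an interval of -0.19 to 0.16.

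No gene of the lists for making and handling collagen passed the test. Among 18 tested genes for chain modification and folding, such as prolyl and lysyl hydroxylases and chaperones, 14 had estimates above 0, 4 below and 0 passed (median 0.10, from -0.25 to 0.24). Without knockout replicate 2, 5 were above 0 and 13 below. For export, trimming and crosslinking 7 of 18 estimates were above 0, 11 below and 0 passed (median -0.13, from -0.59 to 0.29). The median was 0.03 without knockout replicate 3, with 9 above and 9 below, and -0.33 without knockout replicate 2, with 4 above and 14 below. Bmp1, the protease that trims procollagen, was the 1 gene of these 36 whose groups did not overlap, against 19.2% of all genes, with 49.6, 40.7 and 43.0 CPM in controls and 53.2, 58.4 and 50.9 CPM in knockouts. The estimate for Bmp1 was 0.29 (SE 0.10, adjusted p = 0.283, edgeR). Of 10 small leucine-rich proteoglycans, which bind fibrils, 3 had estimates above 0, 7 below and 0 passed (median -0.16, from -0.74 to 0.63), and 7 above and 3 below without knockout replicate 3. Their summed level was lowest in knockout replicate 3, at 469 CPM against 765 to 999.7 CPM elsewhere. Among 9 tested receptors, the integrin chain Itga11, which binds type I collagen, had the smallest p (estimate -0.44, SE 0.17, adjusted p = 0.310, edgeR), with 3 of 9 above 0, 6 below and 0 passing. Of 7 tested matrix proteases and inhibitors 5 had estimates above 0, 2 below and 0 passed (median 0.05). The split was 7 above and 0 below without knockout replicate 3, and 1 above and 6 below without knockout replicate 2.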

How the data were processed

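RNA was sequenced from 3 control and 3 Dlx5-/- libraries with an Illumina TruSeq mRNA kit, per the labels' protocols. The deposited table holds estimated counts per gene. STAR 2.4.1d and Partek, with build mm10, come from the submitters' processing notes; annotation, counting settings and strand were not given in the sources used here. The name of the file calls the values normalized, but column totals differ. Of values above 0.5, 64.5% were whole within 0.001. Besides the 6 columns used, 1 column, whose header carries the letters WT, fitted no sample's labels and stayed out.

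Counts were rounded, and genes with a mean of at least 1 CPM over the 6 libraries were kept (16218). The main test was edgeR 4.0.16 (R 4.3.3), quasi-likelihood with TMM and no block, with Benjamini-Hochberg adjustment over all kept genes at 0.05. Standard errors derive from the F statistic. limma 3.58.1 and DESeq2 1.42.0 served as alternatives, beside other filters, scalings and libraries left out. The test was checked on simulated counts. Exonic lengths and gene coordinates came from GENCODE M21 (GRCm38), which matched all 44 collagens; promoters came from RefSeq. Per role, the 4 collagens with the smallest p, the 3 with the highest level per length and those without overlap were named. Most, but not all, of them were given with the value of each library, and values of further collagens were added. From each other list up to 4 genes with the smallest p could be named, and Ibsp, Alpl and Sox9 fall under this rule. The family and the lists were chosen with earlier results of these data known. Libraries of a group differed by more than counting noise. Figures were drawn with matplotlib 3.10.9.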

Additional observations from a re-analysis of the deposited data

How the results depend on the processing

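The number of genes called over the whole table depended on the method. Against 1 gene in the edgeR fit, 41 were called with library totals without TMM, 506 with DESeq2, 97, 96 and 76 with limma-trend at pseudocounts of 1, 0.5 and 5, 88 with quantile normalization, 679 without a filter, 74 with a filter of 5 CPM and 299 at a threshold of 0.1. With 1 library left out it ran from 0 to 164 (164 without knockout replicate 3). Of the collagens, 2 were called by DESeq2 (Col18a1 and Col8a1), 1 without a filter (Col8a1) and 1 at a threshold of 0.1 (Col18a1), all lower, and 0 under each other alternative, libraries left out included. Libraries with the same replicate number showed no shared shift over all genes: their deviations correlated at -0.014, -0.011 and 0.020. These correlations cannot settle whether the libraries were paired. With the replicate block 0 genes and 0 collagens were called. The cause of these differences was not tested.

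Over 17 alternatives the basement membrane median ran from -0.37 to -0.17 and the cartilage median from 0.10 to 0.92. The fibrillar median ran from -0.47 to 0.01, and the median of other collagens from -0.47 (without knockout replicate 2) to -0.0241 (without knockout replicate 3). Among the 21 collagens picked by the naming rule, signs changed only with a library left out. Col3a1 then ran from -0.14 to 0.13, Col6a1 from -0.12 to 0.25 and Col6a2 from -0.20 to 0.15, each lowest without knockout replicate 2. Col1a2 ran from -0.54 to 0.00985 and Col24a1 from -0.62 to 0.0309, each highest without knockout replicate 3. Depth limits Col7a1, Col19a1, Col20a1 and Col5a3, with 53 to 125 counts per group.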
